A study of Mus musculus with 6 samples.

Results

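The genes described here encode sensors of microbes and the adaptors below them: Nod1, Nod2, Tlr4, Tlr9, Myd88, Irak4, Ticam1 and Nlrc5. These 8 of the 21900 protein-coding genes were listed by function, except that Nod2 was chosen by a measured value, the gain of DNA methylation in a stretch within it in Tet2 knockout (KO) cells. Naive B cells had been taken from the spleens of C57BL/6 mice, giving 3 Tet2 KO libraries and 3 wild-type (WT) libraries. The sources used here do not give the age or sex of the mice, the kind of Tet2 allele, or whether each library came from its own mouse. The p-values therefore reflect the variation among these 6 libraries, which may be technical. Naive B cells are named in the title and in all sample labels, but the design text speaks of the germinal centre. Methylation was read by enhanced reduced representation bisulfite sequencing (ERRBS), which covers CpG cytosines in size-selected restriction fragments and reads 5-methylcytosine and 5-hydroxymethylcytosine alike as C.

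Innate sensors recognise molecules that microbes share. NOD1 and NOD2 are cytosolic sensors of peptidoglycan fragments that signal through the kinase RIPK2 to NF-kB. Toll-like receptors sit in the plasma membrane, as TLR4 does for lipopolysaccharide, or in endosomes, as TLR9 does for DNA rich in unmethylated CpG, a stimulus that B cells answer strongly. Their signals pass through the adaptor MYD88 to the kinase IRAK4, or through the adaptor TICAM1, also called TRIF. NLRC5 belongs by structure to the NOD-like family and acts in the nucleus as an activator of MHC class I genes. TET2 oxidises 5-methylcytosine, a step in the removal of DNA methylation.

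Each library held between 1551481 and 1626375 cytosines at a median depth of 92 to 110 reads, and 1457048 cytosines had at least 10 reads in all 6 libraries. Mean methylation over these was 33.8%, 33.8% and 33.6% in KO 1 to 3 and 33.2%, 33.4% and 33.4% in WT 1 to 3. Among markers of blood cell types, the ends of 3 myeloid genes (Elane, Cebpe and Adgre1) were highly methylated, between 92.1% and 98.8% in KO and between 90.7% and 96.9% in WT. The ends of the B cell genes Cd79b and Pax5 stood at 1.51% and 0.527% in KO, and at 1.02% and 0.201% in WT. The whole lists were mixed. Over 5 windows of B cell genes the median was 10.7% in KO and 9.87% in WT, over 7 of T cell genes 93.4% and 84.0%, and over 5 of erythroid genes 63.9% and 65.0%. The T cell medians fell on different windows. They were the lower ends of Zap70 (93.4% in KO, 82.6% in WT) and Bcl11b (93.6% in KO, 84.0% in WT). The other windows of T cell genes differed less between genotypes. The 1 window of an NK cell gene, Gzma, stood at 27.8% ± 12.7 in KO and 16.7% ± 3.63 in WT. The part of other cell types in the results was not tested. The B cell kinase gene Blk stood at 85.3% in KO and 82.4% in WT, and the lower end of the T cell gene Cd4 at 0.390% and 0.456%.

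Within the 8 genes and 2 kb on each side of them, 358 cytosines were measured in all 6 libraries. They were spread unevenly: 98 in Nod1, 80 in Irak4, 75 in Myd88, 44 in Nlrc5, 34 in Nod2, 18 in Ticam1 and 9 in Tlr9. Tlr4, the receptor for lipopolysaccharide, had 0 cytosines with 10 reads in any of the 6 libraries, and the nearest measured cytosines lay 52.4 kb below and 31.0 kb above the gene, so its methylation was not determined. The cytosines of the other 7 genes formed 27 tiles of 1 kb with at least 3 cytosines each. The tiles fell into distinct classes: 7 below 5% in both genotypes, 17 above 80% in both, and 3 in between. Of the 3 in between, the first lay within Nod2, the next at the end of Tlr9 and the last near the end of Nod1. A level between 0% and 100% in bulk DNA is a share of reads, and a mixture of cell types cannot be told apart from a mixture of states within B cells.

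**Figure D1:**
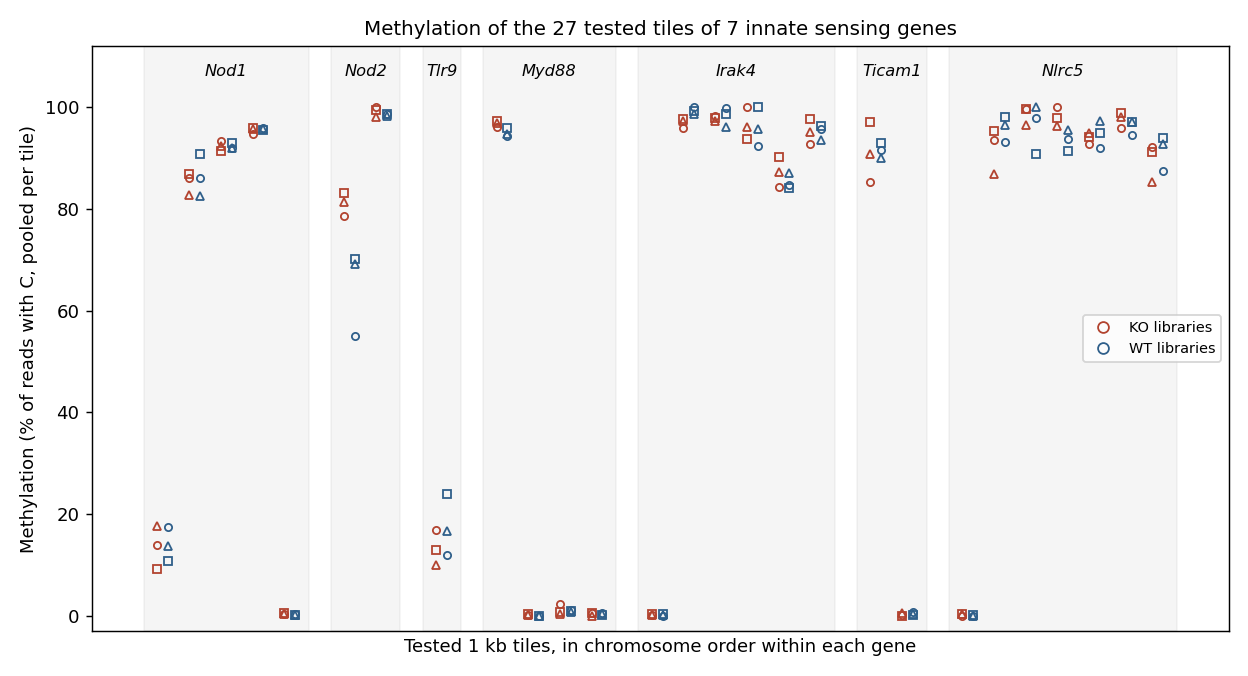
Methylation of the 27 tested tiles (y axis, percent of reads with C, pooled over the cytosines of a tile) in chromosome order within each gene; each symbol is 1 library, KO left and WT right of each tile position. The tiles lie near 0% or above 80%, apart from 1 tile each in Nod2, Tlr9 and Nod1, and the Nod2 tile at 78.6 to 83.1% in KO and 55.0 to 70.2% in WT is the one with the widest gap between genotypes.

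Differences between genotypes were tested on read counts with C and T, over all 108802 tiles of the genome, by a quasi-binomial model whose error comes from the spread between libraries. Calling a tile required a difference of 10 percentage points or more together with an adjusted p below 0.05. Of all tiles, 0.112% were called as gains and 0% as losses. Among the 27 tiles of these genes 1 was called, a gain in Nod2, and since that gain was the reason for including Nod2, nothing is read from this count. Of all 27 tiles, 14 were higher and 13 lower in KO, with a median difference of 0.0239 points, against 59.8% of all tiles higher in KO and a median of 0.176 points.

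Nod2 (gene 257632, chromosome 8, 88647315 to 88688474, GRCm38, plus strand) encodes the sensor of muramyl dipeptide. The gained tile runs from 88664001 to 88665000, inside the gene span, and its 29 cytosines at 21 CpG positions lie 16.9 to 17.6 kb downstream of the gene start. Exons and introns were not analysed here. The pooled level was 78.6%, 83.1% and 81.4% in KO 1 to 3, and 55.0%, 70.2% and 69.2% in WT 1 to 3. Every KO library lay above every WT library, the KO libraries were close to each other, and WT 1 was the lowest library. The means were 81.0% ± 2.25 in KO and 64.8% ± 8.52 in WT (SD, n = 3 each), and the pooled difference was 15.8 points. Without WT 1 the difference was 11.3 points, and the tile was still called. The call was lost without KO 2 or KO 3, with edgeR, with limma, with the replicate number as a block and without moderation of the overdispersion. These values chose the gene, so they are given as a description, without a p-value. The call kept without WT 1 is not read as support.

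The Nod2 tile was covered by 3216, 3589 and 4059 reads on its cytosines in KO 1 to 3 and by 3666, 4686 and 3890 in WT 1 to 3, with between 20 and 273 reads per cytosine and library. Neighbouring cytosines share reads, so they are not independent measurements. Among the 122 tiles called as gains in the genome, whose median gain was 18.5 points, this one ranked 84th by size.

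Along the Nod2 tile, the levels varied from cytosine to cytosine, and the lowest mean in both genotypes was at a single CpG read on both strands. On its plus strand, at 88664432, the level was 45.0%, 70.2% and 79.0% in the KO libraries and 23.3%, 28.0% and 40.5% in the WT libraries. On its minus strand, at 88664433, it was 48.9%, 68.8% and 59.9% in KO and 18.6%, 33.3% and 32.0% in WT. The genotypes did not overlap on either strand, and the differences of the means, 34.1 and 31.2 points, were the largest and the second largest of the tile. The next was at 88664366, with 88.2% ± 1.57 in KO and 57.7% ± 14.95 in WT. A lower mean in KO was found at 88664841, 88664952 and 88664811, by -3.21, -2.07 and -1.77 points, with overlapping libraries.

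Splitting the Nod2 tile at places chosen after its profile was seen, the middle stretch from 88664328 to 88664679 held 18 cytosines, all with a higher mean in KO, and 12 of them separated the genotypes completely. Pooled over this stretch, the level was 77.0% ± 2.79 in KO and 55.8% ± 9.90 in WT. Pooled over the 3 cytosines before it (88664222 to 88664253), the level was 82.8% ± 5.55 in KO and 74.3% ± 11.2 in WT, and the libraries of the genotypes overlapped. The 8 cytosines after it (88664717 to 88664952) were at 91.0% ± 1.46 in KO and 87.2% ± 0.925 in WT, with 5 higher in KO. Their pooled levels did not overlap, at 91.0%, 89.6% and 92.5% in KO and 86.4%, 88.2% and 86.9% in WT. Over the whole tile 26 of the 29 cytosines had a higher mean in KO, and 14 separated the genotypes with KO above. The genome's share of such cytosines was 2.97%, and since this tile chose the gene and its cytosines share reads, nothing is read from the count.

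**Figure D2:**
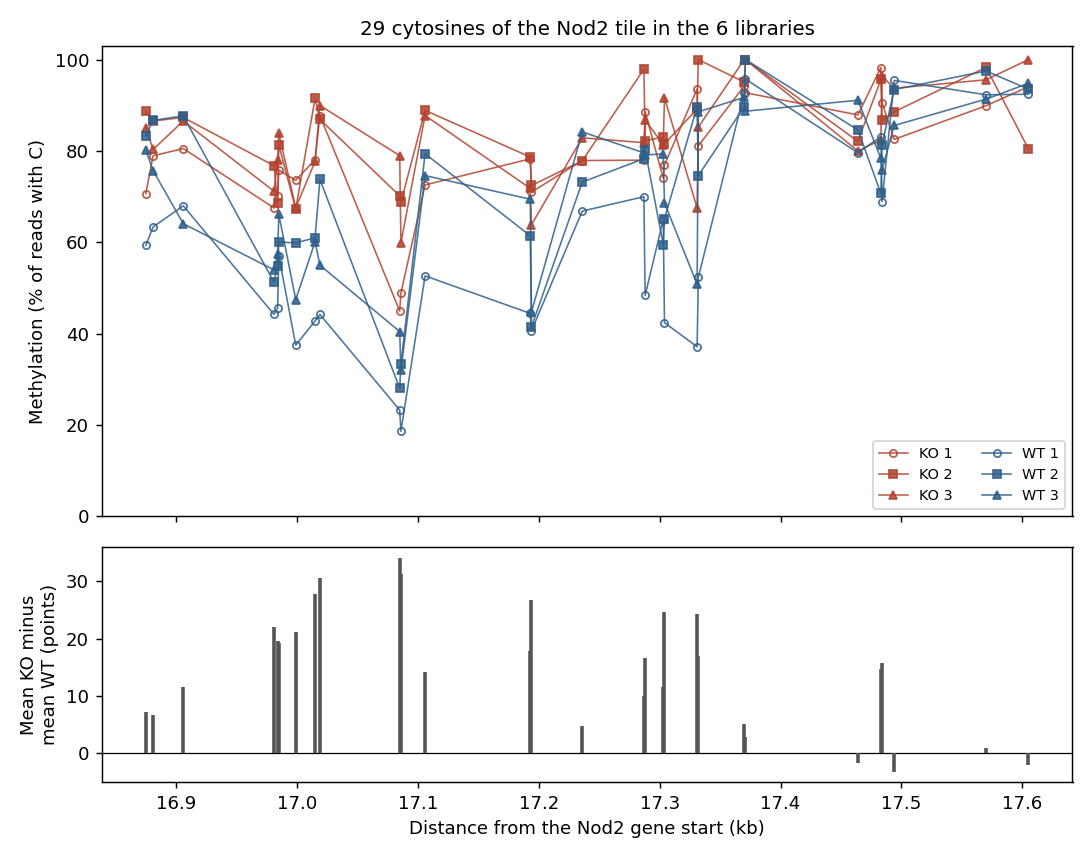
Methylation of the 29 cytosines of the Nod2 tile in each library (upper panel, percent of reads with C) and the mean of KO minus the mean of WT (lower panel, percentage points) against the distance from the Nod2 gene start in kb. The genotypes part most at 17085 bp, where the plus-strand cytosine averages 64.7% in KO and 30.6% in WT.

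Both strands carried the Nod2 difference. The 17 cytosines of the plus strand stood at 81.0% ± 3.06 in KO and 65.4% ± 8.97 in WT, and the 12 of the minus strand at 80.8% ± 1.41 in KO and 64.0% ± 7.998 in WT. In all 8 CpGs measured on both strands, each strand had the higher mean in KO. Since the tile was chosen by its gain in KO, nothing is read from this count. The difference between the strands in this gain ranged from 0.290 points at 88664331 to 13.1 points at 88664650.

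Elsewhere in Nod2, 5 cytosines were measured. The tile from 88676001 to 88677000, with 3 cytosines, stood at 100%, 99.4% and 98.0% in KO and at 98.7%, 98.6% and 98.2% in WT. At the upper end of the gene 2 further cytosines were measured, too few for a tile. The one at 88688444 was at 93.3% ± 1.73 in KO and 98.2% ± 1.79 in WT, where all KO libraries lay below the WT libraries. The one at 88688586 was at 69.1% ± 4.86 in KO and 60.3% ± 3.31 in WT, with overlapping libraries. With each of the 34 cytosines of the locus weighted equally, Nod2 averaged 83.7% ± 2.47 in KO and 70.9% ± 5.83 in WT.

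The Nod2 gene start was not measured in all libraries. The RefSeq window from 250 bases before to 50 after the start (chr8:88647097-88647396, GRCm38.p6, plus strand) holds 9 CpGs and is shown because the gained tile lies far from it; capitals mark the 2 CpGs covered at least 10 times in some but not all libraries.
Nod2 promoter: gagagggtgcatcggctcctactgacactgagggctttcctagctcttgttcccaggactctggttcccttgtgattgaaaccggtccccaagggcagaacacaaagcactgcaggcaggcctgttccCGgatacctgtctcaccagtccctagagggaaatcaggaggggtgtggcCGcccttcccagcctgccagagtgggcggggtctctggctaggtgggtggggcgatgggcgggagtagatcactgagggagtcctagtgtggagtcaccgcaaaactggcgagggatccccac
Of these, the CpG at 88647225 was read 10 times in KO 2 and 19 and 13 times in WT 1 and WT 2, at 0% in KO 2, 0% in WT 1 and 7.69% in WT 2. The CpG at 88647274 was read at 0% in WT 1 and WT 2, with 14 and 12 reads, and fell short of 10 reads in the KO libraries. The window holds 2 copies of CCGG, the site cut by MspI, the enzyme commonly used for such libraries. The same 4 letters, which read alike on both strands, occur in 52.8% of all 32851 promoter windows. Of the windows with CCGG 73.5% held a measured cytosine, against 0.258% of those without it.

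The tiles most like that of Nod2 over the 6 libraries, by Euclidean distance of their percentages, lay in or within 2 kb of Ncf1, Parp1 and Map3k5. Ncf1, which encodes a subunit of the phagocyte NADPH oxidase, had a tile on chromosome 5 (134225001 to 134226000) at 83.8%, 83.5% and 82.5% in KO and 55.5%, 70.8% and 70.8% in WT, at a distance of 5.61 points. That tile was called, too. The tiles of Parp1, a DNA damage sensor, and Map3k5, a stress kinase, were not called and were at distances of 6.76 and 6.78 points. A shared pattern over the libraries is what this choice of tiles fixes.

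Among the other genes no tile was called. Of their 25 tiles, 12 were higher and 13 lower in KO, with differences between -4.85 and 3.93 points and a median of -0.0239 points, and the smallest adjusted p was 0.559. At an unadjusted p under 0.05 there were 2 of the 25, against 7.2% of all tiles. In 3 of the 25 every KO library lay above every WT library and in 1 every KO library lay below, against 8.35% and 3.36% of all tiles. limma and edgeR called 0 tiles anywhere in the genome. Without adjustment, limma put 8072 tiles under 0.05, or 7.42%, and 6 of the 27 tiles of all members. These included the tiles named below for Nod1, Myd88 (within the gene) and Irak4 (3 cytosines), as well as the Nod2 tile. In edgeR the counts were 6081 in the genome and 2 of the 27, again with the Nod2 tile.

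**Figure D3:**
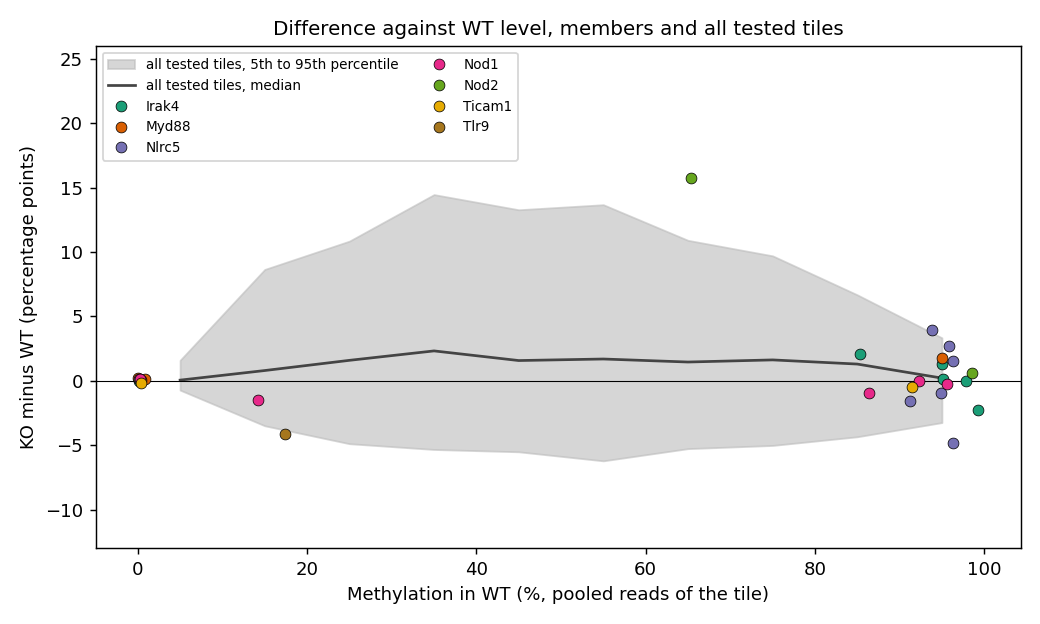
Difference between genotypes (y axis, KO minus WT in percentage points) against the methylation in WT (x axis, percent) for the 27 tiles of the members, over the median and the 5th to 95th percentile of all 108802 tested tiles in steps of 10% of WT methylation. The Nod2 tile is at 15.8 points, while the members' tiles below 5% lie close to 0 points. Nod2 was chosen by this value.

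Nod1 (gene 107607, chromosome 6, 54923942 to 54972674, minus strand), the sensor of peptidoglycan fragments that carry diaminopimelic acid, was unmethylated at its start and methylated within the gene. Its start tile (54972001 to 54973000, 37 cytosines) was at 0.431%, 0.488% and 0.316% in KO and at 0.449%, 0.181% and 0.0910% in WT, with overlapping libraries. In the interior, the tile from 54944001 to 54945000 averaged, over 36 cytosines, 95.4% ± 0.641 in KO and 95.7% ± 0.212 in WT. The promoter window (chr6:54972563-54972862, GRCm38.p6, minus strand), shown 5′ to 3′ for comparison with that of Nod2, holds 15 CpGs, and capitals mark the 4 measured in all libraries.
Nod1 promoter: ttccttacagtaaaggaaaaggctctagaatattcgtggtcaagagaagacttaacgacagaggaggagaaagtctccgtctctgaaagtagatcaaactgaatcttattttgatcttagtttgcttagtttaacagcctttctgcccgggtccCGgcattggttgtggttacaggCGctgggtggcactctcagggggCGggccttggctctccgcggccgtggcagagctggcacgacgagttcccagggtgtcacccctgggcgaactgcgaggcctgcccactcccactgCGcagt
These 4 stood at 0.192% ± 0.0748 in KO and 0.190% ± 0.329 in WT.

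Near the end of Nod1, the tile from 54925001 to 54926000 was at 13.8%, 9.22% and 17.6% in KO and at 17.5%, 10.8% and 13.7% in WT, a difference of -1.51 points (adjusted p = 0.972). Its pooled level hid unlike cytosines. Those at 54925814 and 54925840 were at 0% and 1.03% ± 1.79 in KO and at 0% in WT, while the one at 54925616 was at 81.6%, 63.9% and 77.8% in KO and 60.4%, 56.5% and 55.2% in WT. The genotypes did not overlap at 54925616, at 23 to 58 reads per library, but the cytosine was not called. With equal weights per cytosine the tile's difference was 6.03 points, of opposite sign.

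Tlr9 (gene 81897, chromosome 9, 106222598 to 106226876, plus strand), the endosomal receptor of CpG DNA, was measured at its far end alone; its promoter window holds 0 CpGs. The 9 cytosines of the tile from 106226001 to 106227000 were at 16.9%, 12.9% and 9.97% in KO and at 12.03%, 23.9% and 16.7% in WT. The libraries overlapped, and the difference of -4.16 points was not called (adjusted p = 0.775). All 9 cytosines had the lower mean in KO, but the size rested on single WT libraries: it was -0.950 points without WT 2 and -7.15 points without WT 1, and called in neither case. Levels along the tile ranged from 4.98% to 30.0% in KO and from 5.80% to 35.7% in WT, so the 3′ end of Tlr9 was at a low level in both genotypes.

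Myd88 (gene 17874, chromosome 9, 119335934 to 119340018, minus strand), the adaptor of most Toll-like receptors, had an unmethylated start and a methylated interior; the gene Acaa1a lies within 2 kb of it. From its start tile upstream, 19 cytosines (119340001 to 119341000) were at 1.14% ± 1.04 in KO and 0.876% ± 0.223 in WT, and the 27 of the next tile upstream at 0.385% ± 0.310 in KO and 0.335% ± 0.139 in WT. Within the gene, the tile from 119338001 to 119339000, with 21 cytosines, was at 96.0%, 97.2% and 96.9% in KO and 94.3%, 95.9% and 94.8% in WT. The genotypes did not overlap there, by a small margin with KO higher, and the difference of 1.77 points had an adjusted p of 0.559. The nearest cytosines above 80% and below 5% in both genotypes were 1434 bp apart, at 119338495 and 119339929.

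The start side of Myd88 also held a tile, from 119339001 to 119340000, with 8 cytosines at 0.252%, 0.399% and 0.103% in KO and at 0% in all 3 WT libraries, a difference of 0.238 points. Pooled over the whole locus, Myd88 was at 23.8% ± 1.22 in KO and 27.2% ± 2.32 in WT, whereas with equal weights per cytosine it was at 27.6% ± 0.262 and 26.9% ± 0.209. Pooling gives more weight to cytosines with more reads, and the sign differed between the summaries. For the equally weighted means the two-sided exact permutation test gave p = 0.1, the smallest that 3 against 3 libraries allow.

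Irak4 (gene 266632, chromosome 15, 94543613 to 94568317, plus strand), the kinase that MYD88 recruits, had the start with the most measured cytosines of these genes. Its start tile (94543001 to 94544000, with the gene Pus7l within 2 kb of Irak4) held 46 cytosines at 0.139% ± 0.105 in KO and 0.157% ± 0.166 in WT. The 12 measured of the 16 CpGs of its promoter window (chr15:94543410-94543709, GRCm38.p6, plus strand) are in capitals in the sequence, which holds 5 copies of CCGG.
Irak4 promoter: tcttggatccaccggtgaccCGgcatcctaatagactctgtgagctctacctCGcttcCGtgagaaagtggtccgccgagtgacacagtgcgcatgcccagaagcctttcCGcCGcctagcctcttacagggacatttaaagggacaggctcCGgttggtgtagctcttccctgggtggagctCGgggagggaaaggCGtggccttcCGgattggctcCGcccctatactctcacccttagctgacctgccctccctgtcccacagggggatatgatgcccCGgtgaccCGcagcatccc
Their 18 cytosines stood at 0.0882% ± 0.0617 in KO and 0.178% ± 0.164 in WT. The other 5 tiles of Irak4 were at 87.2% to 97.8% in KO and 85.3% to 99.3% in WT. The largest difference was -2.25 points in a tile of 3 cytosines (94547001 to 94548000), at 95.9%, 97.6% and 97.3% in KO and 100%, 99.3% and 98.6% in WT (adjusted p = 0.840), without overlap, KO being lower.

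Ticam1 (gene 106759, chromosome 17, 56269462 to 56276767, minus strand), the adaptor of TLR3 and TLR4, had the same arrangement on few cytosines. Its start tile (56276001 to 56277000, 10 cytosines) was at 0.228% ± 0.255 in KO and 0.424% ± 0.322 in WT. Of the 10 CpGs in its promoter window (chr17:56276718-56277017, GRCm38.p6, minus strand), the 5 in capitals were measured.
Ticam1 promoter: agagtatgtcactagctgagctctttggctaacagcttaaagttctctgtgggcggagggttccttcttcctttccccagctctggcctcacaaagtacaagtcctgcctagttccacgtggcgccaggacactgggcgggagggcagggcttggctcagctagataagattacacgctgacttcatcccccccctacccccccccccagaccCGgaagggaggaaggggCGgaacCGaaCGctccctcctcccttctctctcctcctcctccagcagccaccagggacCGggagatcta
Their level was 0.212% ± 0.368 in KO and 0.140% ± 0.243 in WT. Within the gene, the 6 cytosines of the tile 56273001 to 56274000 had 85.3%, 97.0% and 90.7% in KO and 91.5%, 93.0% and 89.97% in WT, a difference of -0.486 points (adjusted p = 0.986) with KO libraries on both sides of the WT range.

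**Figure D4:**
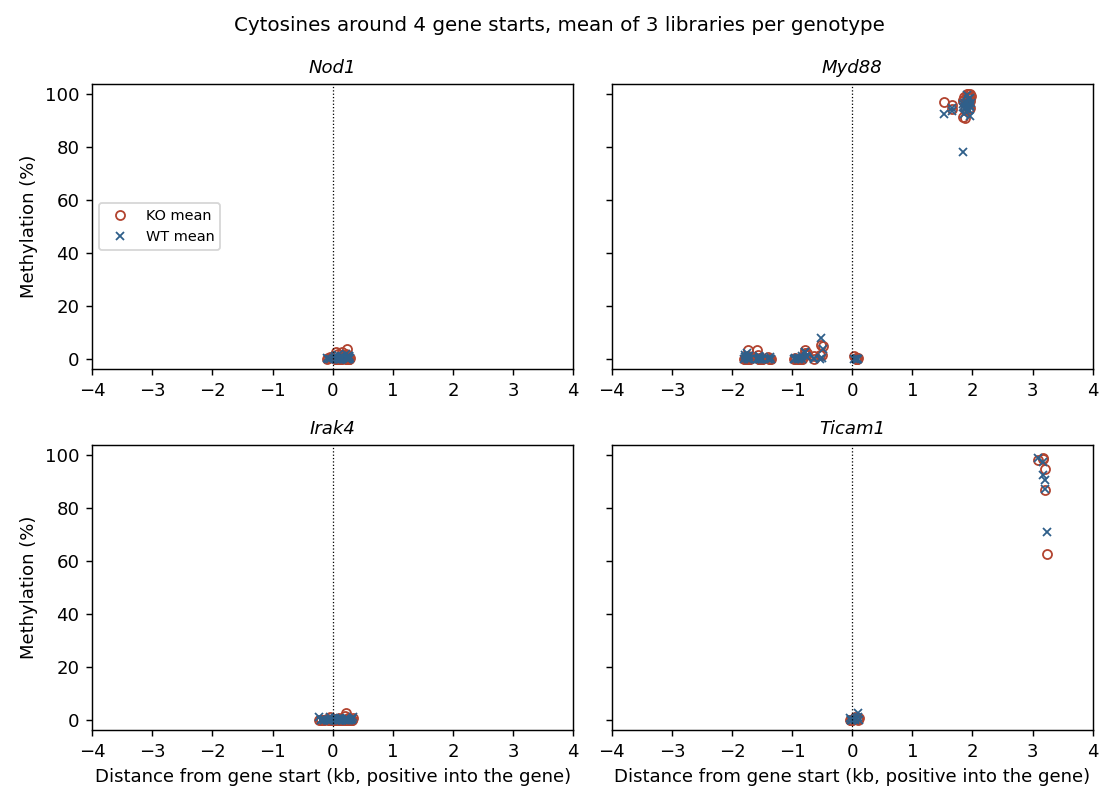
Methylation of single cytosines (y axis, percent, mean of 3 libraries; circles for KO, crosses for WT) against the distance from the gene start (x axis, kb, positive into the gene) for Nod1, Myd88, Irak4 and Ticam1. Circles and crosses near the starts lie close to 0%, and the Myd88 and Ticam1 cytosines further inside lie mostly above 80%.

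Nlrc5 (gene 434341, chromosome 8, 94434335 to 94527272), the activator of MHC class I genes, was unmethylated at its lower end and methylated in all 6 further tiles. The tile from 94434001 to 94435000, with 14 cytosines, was at 0.226% ± 0.198 in KO and 0.0857% ± 0.148 in WT. The next tile, from 94435001 to 94436000, was at 93.4%, 95.2% and 86.8% in KO and at 93.0%, 98.0% and 96.4% in WT. Its difference of -4.85 points was the most negative among the members, with overlapping libraries and an adjusted p of 0.639. KO 3 carried much of it, since without KO 3 the difference was -1.91 points. With tiles shifted by 500 bp, the tile taken in its place held 4 cytosines that were not the same set. It differed by -10.9 points and was not called. The lowest difference of means at a single Nlrc5 cytosine was -9.64 points. Pooling weights cytosines by their reads, and a shifted tile can hold cytosines of both levels. The nearest cytosines below 5% and above 80% in both genotypes were 960 bp apart.

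Deeper inside Nlrc5, the tile from 94447001 to 94448000 had 3 cytosines at 100%, 97.9% and 96.2% in KO and 93.7%, 91.4% and 95.4% in WT. It separated the genotypes by 3.93 points (adjusted p = 0.723). The remaining tiles were between 89.5% and 98.5% in KO and between 91.4% and 96.2% in WT.

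By level class, the 7 tiles below 5% had differences from -0.157 to 0.238 points, and the 22557 such tiles of the genome from -0.507 to 0.831 points between their 5th and 95th percentiles. The 17 tiles above 80% had a median difference of -0.0239 points, with 8 higher and 9 lower, against a median of 0.357 points and 57.6% higher among 63265 tiles. Of these 17, the Nlrc5 tile at -4.85 points lay outside the genome's 5th to 95th percentiles of -3.24 to 4.21 points. The Tlr9 tile at -4.16 points lay below the 5th percentile, -3.49 points, of the 2682 tiles with a WT level of 10 to 20%. No whole locus of the 7 measured genes was called among 16441 gene loci, of which 0% were called. Before adjustment 1 of the 7, Nod2, had a p under 0.05, against 3625 of all 16441 loci. Since Nod2 was chosen by its gain in the same comparison, nothing is read from its locus. No other measured gene had a locus under 0.05 in this fit. limma on equally weighted loci called 0 as well. There, 2 of the 7 had an unadjusted p under 0.05, against 10.4% of all loci in that fit. The 7 included Nod2, which was chosen by its gain, so nothing is read from this count. Of the members' 292 cytosines that varied, 0 were called, against 0.000731% in the genome. At an unadjusted p under 0.05 there were 16 of the 29 in the Nod2 tile, which these values chose, and 22 of the other 263, against 8.48% in the genome.

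The 70 names on 4 lists of other innate sensing genes, some of them second names of a gene already listed, gave 67 genes. Of these genes, 57 had a tested tile. In these, 123 of 191 tiles were higher and 68 lower in KO, and 0 were called. This is 64.4% higher, against 59.8% of all tiles, and 13 tiles had an unadjusted p under 0.05, against 7.2% of all tiles. Among Toll-like receptors and their coreceptors, 16 of 23 tiles were higher. The smallest p there was at Tlr2, a receptor of bacterial lipopeptides, with 0.679% ± 0.183 in KO against 0.232% ± 0.119 in WT (adjusted p = 0.585). Among NOD-like receptors and their partners, 31 of 50 were higher, and Nlrp6 had 36.5% ± 1.54 in KO against 41.5% ± 1.07 in WT (adjusted p = 0.562).

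Among TIR adaptors, kinases and ubiquitin enzymes, 60 of 95 tiles were higher. The smallest p was at Ube2v1, a partner of the ubiquitin-conjugating enzyme UBE2N, with 61.6% ± 6.84 in KO against 47.6% ± 5.63 in WT (adjusted p = 0.436). Irak2, a kinase related to IRAK4 and named here for having the largest difference of the 4 lists, had 78.6% ± 4.65 in KO against 59.6% ± 14.0 in WT on 3 cytosines (adjusted p = 0.606). Among cytosolic sensors of nucleic acids, 16 of 23 were higher, and Trim25, a ubiquitin ligase of the RIG-I pathway, had 96.0% ± 2.03 in KO against 98.9% ± 0.954 in WT (adjusted p = 0.675).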

How the data were processed

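Per the submitters' processing notes, reads were processed with Bismark on the build GRCm38; its version, any trimming and the treatment of duplicates were not found in those notes or the labels. Per the file headers, each library's table lists CpG cytosines by strand with the coverage, a raw read count that is nowhere below 10, and the percent of reads with C and with T. Multiplying each deposited percent by its coverage gave the number of C and of T reads, whole in 100% of values within a rounding of 0.0005 percentage points in the deposited percent. Reads with another base, 0.0178% to 0.0190%, were dropped. No molecular identifiers are mentioned, so PCR copies may be counted.

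Gene spans and promoter windows came from RefSeq tables of GRCm38.p6, which hold no exons. Tiles of 1 kb needed 3 cytosines and gene loci, with 2 kb on each side, 5, each covered 10 times in all 6 libraries. The test was a quasi-binomial model with 4 residual degrees of freedom, tested by F with Benjamini-Hochberg adjustment over all features. Its overdispersion was moderated with limma 3.58.1 and never below 1. The model was also run on simulated counts. Their overdispersion was taken from the model's own moderated fit, so that run cannot test the moderation. The 141 tiles with no C or no T read were left out. edgeR 4.0.16 and limma on mean percentages were alternatives. Fits ran in Python 3.11.15 and R 4.3.3.

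The members, lists and tests were chosen with earlier results of these data known. The text names the called tile, each gene's tile with the largest difference, its start tile, and the smallest p of each list; other tiles and cytosines were added after their values were seen.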

Additional observations from a re-analysis of the deposited data

How the results depend on the processing

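The Nod2 gain was between 9.91 and 18.8 points under the 15 alternatives, for the tile that held most of its cytosines. Nod2 was chosen by this gain, so its unchanged direction is not read as support. No single library left out could turn it, as every KO library lay above every WT library. Alternatives that changed only the test, such as edgeR, repeated the 15.8 points. The call of the Nod2 tile did not hold throughout. The count of 1 called tile among the members became 0 without moderation of the overdispersion, with edgeR, with limma on equally weighted cytosines, with the replicate number as a block, and with the 141 constant tiles kept in the moderation, an alternative chosen after seeing the data. Under each of these 5, 0 tiles were called in the whole genome. Leaving out single libraries gave 0 to 1 called tiles: 0 without KO 2 or KO 3, where Nod2 gained 14.8 and 15.6 points, and 1 without each of the others. These fits tested 108716 to 108755 tiles of the genome. Without KO 2 they called 52 gains and 0 losses there, and without KO 3 118 gains and 1 loss. Without KO 1, WT 1, WT 2 and WT 3 the gains numbered 82, 50, 117 and 79, and the losses 7, 2, 1 and 0. With tiles shifted by 500 bp, 1 side of the Nod2 stretch was called, at 20.98 points on 12 cytosines, and the other, at 9.91 points on 17, was not. The cause of these changes was not tested. The deviations of KO and WT libraries of the same replicate number had correlations of -0.0175 to 0.0279. Those of unlike number had correlations of -0.0184 to 0.0323. Whether libraries of the same number shared a batch was not tested, and the number was taken as a name only.

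Single libraries left out gave 0 to 1 called cytosines of the members. The 1 was 88664432 in the Nod2 tile without KO 1, a fit with 21 gains and 11 losses among 1065005 cytosines of the genome. Since that tile chose Nod2, nothing is read from this cytosine. Of the members' loci, 0 were called under all 12 alternatives. In the genome 0 loci were called as well, except without WT 3, with 227 gains and 1 loss among 16440 loci. The Nod1 end tile, at -1.51 points, turned to 6.03 points with equal weights and ranged from -3.01 to 1.17 points over the libraries left out, with 0.0100 without WT 1. The Ticam1 interior tile turned to 0.367 points with equal weights and ranged from -3.05 to 1.82 points, with 0.414 without WT 2. Neither was called under any alternative run. Tiles of 3 cytosines, as in Nod1, Irak4 and Nlrc5, limit what small differences can show.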

Other observations

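Between the Nod2 start and the gained tile, further cytosines were covered in some libraries only and entered no comparison. At 88662743 the level was 23.1%, 27.3% and 73.3% in KO 1 to 3, and 0% in WT 1 and 56.8% in WT 3, with 13 to 44 reads. At 88662751 it was 83.3%, 38.1% and 6.67% in KO 1 to 3, and 0% in WT 1 and 17.8% in WT 3. Just beyond the tile, 5 cytosines between 88665198 and 88665233 were covered in WT 1 alone, each at 100% on 10 or 11 reads.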
